A study of Mus musculus with 6 samples.

Results

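Genes of the synaptic vesicle and of its release machinery were examined in primary mouse motoneuron cultures, as RNA-seq levels per gene in FPKM (fragments per kilobase of transcript, scaled to the mapped fragments of the library). The set was chosen by name, as 46 gene symbols that encode SNARE proteins, synaptotagmins, Rab3 proteins, vesicle membrane proteins, synapsins, active zone proteins and neurexins. These matched 47 of the 39174 gene rows of each library. The symbol Pclo stood on 2 rows. One was the protein-coding gene ENSMUSG00000061601, and the other was a row typed as lincRNA, ENSMUSG00000098239 (chromosome 5, 14861407 to 14863459), which lies within the last exon and untranslated region of transcript Pclo-201 in GENCODE M21. The latter is called the Pclo lincRNA row below, and is counted among the 47. Coordinates are on GRCm38.

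The cultures came from Nmd+/+ mice (3 libraries) and Nmd-/- mice (3 libraries), and the labels name CD-1 as the strain of both genotypes. Nmd-/- animals carry 2 copies of nmd, an allele of the helicase gene Ighmbp2 that disturbs the splicing of its transcript. Neither age nor days in culture is labelled, nor whether the libraries within a genotype are from different animals or dishes. P-values therefore measure the spread between these libraries, which may be technical in part. Ighmbp2 measured 1.44, 1.303 and 1.09 FPKM in Nmd+/+ replicates 1, 2 and 3. In Nmd-/- replicates 1, 2 and 3 it measured 0.876, 0.788 and 0.598 FPKM, without overlap. Of the 14611 genes tested below, 0.91% had groups apart in this direction. All values below are given in that order of replicates.

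A synaptic vesicle fuses when the vesicle SNARE synaptobrevin, encoded by the Vamp genes, zips together with syntaxin and SNAP-25 of the plasma membrane. Synaptotagmins sense the calcium that triggers fusion, complexins hold the assembled SNAREs, and Munc13, RIM, Bassoon, Piccolo and ELKS proteins dock and prime vesicles at the active zone. Motoneurons use this machinery to release acetylcholine onto muscle, as do other spinal neurons to release glutamate, GABA or glycine.

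The label of the cultures was checked against marker genes. Transcripts of neurons were abundant: 12 of 12 general neuron markers reached a mean of 1 FPKM, among them Tubb3 (85.8 to 263 FPKM), Stmn2 (154 to 353 FPKM) and Rbfox3 (23.2 to 49.9 FPKM). The markers that define motoneurons were near 0, with Chat at most 0.0692 FPKM, Mnx1 at most 0.0247 FPKM and Isl2 at most 0.0364 FPKM in any library. Only Isl1 (0.608 to 1.81 FPKM) reached a mean of 1 FPKM among the 7 motoneuron markers measured. Markers of inhibitory neurons reached it for 5 of 5, of radial glia and astrocytes for 9 of 9, of dividing cells for 8 of 8, of the oligodendrocyte lineage for 6 of 7 and of fibroblasts for 6 of 6, the last through replicate 2 of each genotype. The synaptic levels are therefore those of a mixed culture, and fewer neurons and less RNA per neuron cannot be told apart in them. Depth, read from the width of the deposited 95% intervals, was equivalent to 15382006 to 23072449 fragments a library, and the median synaptic gene rested on the equivalent of 852 to 1689 fragments in a library.

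Of the 47 rows, 46 reached a mean of 1 FPKM over the 6 libraries and entered the test. Their levels spanned from Vamp2 (mean 351 FPKM) to Sv2b (mean 2.89 FPKM), as plotted gene by gene. Together the 47 rows took 0.320%, 0.183% and 0.297% of the summed FPKM of the Nmd+/+ libraries and 0.319%, 0.190% and 0.237% of that of the Nmd-/- libraries. Replicate 2 of both genotypes was low, and replicate 3 of Nmd-/- stood between these and the other 3 libraries.

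**Figure D1:**
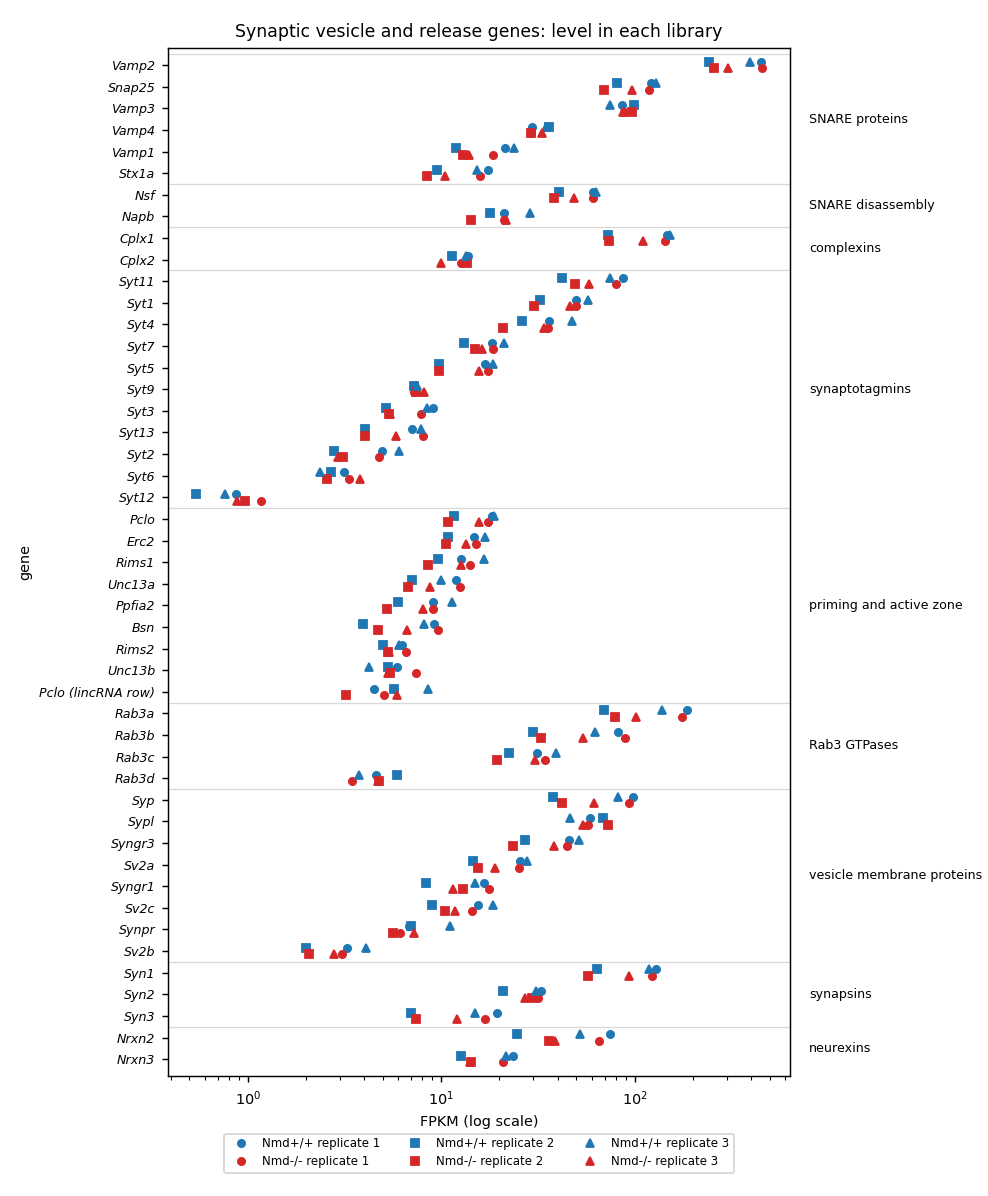
FPKM on a log axis of the 47 gene rows in each library, grouped by role, with genotype as colour and replicate number as symbol. For 32 of the 46 tested rows the squares of replicate 2 lie to the left of the other libraries in both genotypes, for Vamp3, Sypl and Rab3d to the right, and Vamp2 has the highest level.

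Among the SNARE genes, Vamp2, which encodes the main synaptobrevin of neuronal vesicles (ENSMUSG00000020894, chromosome 11, 69088490 to 69092384), had the highest level of the whole set. It measured 452, 243 and 396 FPKM in Nmd+/+ and 456, 257 and 305 FPKM in Nmd-/-. Its lowest value exceeded the highest of every other member. Snap25 (ENSMUSG00000027273, chromosome 2, 136713453 to 136782428), the gene of the plasma membrane SNARE that is cut by several botulinum toxins, measured 122, 81.3 and 128 FPKM in Nmd+/+ and 119, 69.4 and 97.3 FPKM in Nmd-/-. In both genes the 2 lowest libraries were those of replicate 2, and within replicate 3 the Nmd-/- library was the lower one.

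Stx1a, the gene of the plasma membrane syntaxin, measured 17.5, 9.54 and 15.4 FPKM in Nmd+/+ and 15.8, 8.48 and 10.4 FPKM in Nmd-/-, lower in Nmd-/- in each of the 3 same-numbered pairs. Vamp1, the synaptobrevin gene prominent at neuromuscular junctions, measured 21.4, 11.9 and 23.7 FPKM in Nmd+/+ and 18.6, 13.02 and 13.9 FPKM in Nmd-/-. Its 2 low values in Nmd-/- came from replicates 2 and 3, while only replicate 2 was low in Nmd+/+. Vamp3 encodes cellubrevin, which serves membrane traffic in most cell types, and it had the opposite order of libraries. It measured 85.9, 99.8 and 74.4 FPKM in Nmd+/+ and 88.5, 96.96 and 86.7 FPKM in Nmd-/-, with both replicate 2 libraries highest. Vamp4, of the trans-Golgi network and endosomes, varied least of the SNARE genes, from 29.01 to 36.1 FPKM. Nsf, which encodes the ATPase that takes used SNARE complexes apart, measured 60.6, 40.7 and 63.2 FPKM in Nmd+/+ and 60.6, 38.3 and 48.5 FPKM in Nmd-/-. Napb encodes the neuronal adaptor beta-SNAP that brings NSF to them, and measured 21.1, 17.8 and 28.8 FPKM in Nmd+/+ and 21.2, 14.3 and 21.6 FPKM in Nmd-/-. Both followed Snap25 in having replicate 2 lowest in both genotypes.

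The complexin gene Cplx1 measured 148, 72.6 and 153 FPKM in Nmd+/+ and 143, 73.8 and 110.2 FPKM in Nmd-/-, with both replicate 2 libraries lowest and 2.11-fold between the highest and the lowest library. Cplx2, its paralog, lay at 9.99 to 13.7 FPKM, and its lowest library was replicate 3 of Nmd-/-.

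Among the 11 synaptotagmin genes, Syt11, whose product does not bind calcium, was highest and measured 86.9, 42.2 and 74.3 FPKM in Nmd+/+ and 80.5, 49.3 and 58.4 FPKM in Nmd-/-. Syt1, the gene of the fast calcium sensor of many central synapses, measured 49.8, 32.3 and 57.5 FPKM in Nmd+/+ and 49.5, 30.04 and 46.2 FPKM in Nmd-/-. Syt2 encodes the fast sensor of motor nerve terminals and of many inhibitory synapses, and was far lower. It measured 4.97, 2.81 and 6.05 FPKM in Nmd+/+ and 4.75, 3.11 and 2.93 FPKM in Nmd-/-, so that replicate 3 of Nmd-/- was as low as replicate 2 of either genotype. Syt4, whose product is found on dense core vesicles, measured 35.95, 26.2 and 47.2 FPKM in Nmd+/+ and 35.5, 20.9 and 33.9 FPKM in Nmd-/-. Both Syt1 and Syt4 were lowest in replicate 2 of each genotype and highest in replicate 3 of Nmd+/+. Syt7, the high-affinity sensor of asynchronous release and facilitation, lay at 13.1 to 21.1 FPKM, and Syt5, Syt3 and Syt13 at 9.71 to 18.5 FPKM, 5.18 to 9.13 FPKM and 4.02 to 8.06 FPKM. Syt9 was nearly level over the libraries, with 7.21, 7.28 and 7.54 FPKM in Nmd+/+ and 7.25, 7.42 and 8.12 FPKM in Nmd-/-. Syt6 measured 3.16, 2.70 and 2.35 FPKM in Nmd+/+ and 3.35, 2.58 and 3.80 FPKM in Nmd-/-, highest in replicate 3 of Nmd-/-.

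Syt12 was the one member under the filter. It measured 0.868, 0.542 and 0.765 FPKM in Nmd+/+ and 1.18, 0.963 and 0.881 FPKM in Nmd-/-, with every Nmd-/- value above every Nmd+/+ value. Of genes with any signal and no filter on level, 2.30% had groups apart in this direction, and Syt12 was not tested in the main comparison.

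The 9 rows of priming and active zone genes were lower and closer together, with means from 5.49 to 15.4 FPKM. Pclo, the gene of the giant scaffold protein Piccolo (ENSMUSG00000061601, chromosome 5, 14514918 to 14860184), measured 18.3, 11.6 and 18.7 FPKM in Nmd+/+ and 17.4, 10.9 and 15.7 FPKM in Nmd-/-. Its lincRNA row measured 4.47, 5.73 and 8.57 FPKM in Nmd+/+ and 5.06, 3.23 and 5.91 FPKM in Nmd-/-. Both rows were highest in replicate 3 of Nmd+/+ and lowest in replicate 2 of Nmd-/-. Within Nmd+/+, replicate 2 was the lowest library for the protein-coding row but lay above replicate 1 for the lincRNA row. Bsn, which encodes the related scaffold Bassoon, measured 9.17, 3.95 and 8.12 FPKM in Nmd+/+ and 9.66, 4.71 and 6.67 FPKM in Nmd-/-. The vesicle priming gene Unc13a measured 11.9, 7.10 and 9.94 FPKM in Nmd+/+ and 12.6, 6.77 and 8.71 FPKM in Nmd-/-. Bsn and Unc13a were lowest in both replicate 2 libraries, as Pclo was. The Unc13a paralog Unc13b measured 5.94, 5.28 and 4.25 FPKM in Nmd+/+ and 7.38, 5.41 and 5.31 FPKM in Nmd-/- and was higher in Nmd-/- in each pair. Rims1 and Rims2, whose products tether Rab3 vesicles and calcium channels, lay at 8.54 to 16.6 FPKM and 4.998 to 6.57 FPKM, Erc2 at 10.6 to 16.9 FPKM, and the liprin gene Ppfia2 at 5.25 to 11.3 FPKM.

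Of the Rab3 GTPase genes, whose products sit on secretory vesicles and bind RIM, Rab3a measured 187, 69.8 and 138 FPKM in Nmd+/+ and 176, 79.2 and 101 FPKM in Nmd-/-, and Rab3b 82.4, 29.7 and 62.6 FPKM in Nmd+/+ and 88.7, 32.6 and 54.4 FPKM in Nmd-/-. These were among the members that varied most, with the highest library 2.68-fold and 2.99-fold above the lowest. Rab3c lay at 19.5 to 39.3 FPKM. Rab3d, best known from exocrine glands, was the lowest of the 4 and measured 4.63, 5.91 and 3.74 FPKM in Nmd+/+ and 3.46, 4.77 and 4.72 FPKM in Nmd-/-, with replicate 2 highest in both genotypes.

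Among vesicle membrane proteins, Syp, the gene of synaptophysin, measured 97.8, 37.7 and 82.1 FPKM in Nmd+/+ and 92.97, 41.96 and 61.9 FPKM in Nmd-/-. Its broadly expressed relative Sypl measured 58.5, 68.9 and 46.4 FPKM in Nmd+/+ and 57.5, 72.7 and 54.4 FPKM in Nmd-/-. The paralogs thus ran in opposite order: both replicate 2 libraries were lowest for Syp and highest for Sypl. Synaptoporin, encoded by Synpr, measured 6.80, 6.97 and 11.1 FPKM in Nmd+/+ and 6.12, 5.66 and 7.26 FPKM in Nmd-/-, highest in replicate 3 of Nmd+/+ and lower in Nmd-/- in each pair. The synaptogyrin genes Syngr3 and Syngr1 lay at 23.4 to 51.8 FPKM and 8.33 to 17.7 FPKM. Sv2a, whose product is the target of levetiracetam, measured 25.7, 14.7 and 27.7 FPKM in Nmd+/+ and 25.3, 15.4 and 18.9 FPKM in Nmd-/-, and Sv2c and Sv2b lay at 8.97 to 18.6 FPKM and 1.99 to 4.11 FPKM.

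The synapsin genes encode phosphoproteins that hold vesicles in the reserve pool. Syn1 (ENSMUSG00000037217, chromosome X, 20860511 to 20921004) measured 128, 63.98 and 119 FPKM in Nmd+/+ and 123, 57.6 and 93.6 FPKM in Nmd-/-, and Syn3 19.5, 6.99 and 15.04 FPKM in Nmd+/+ and 16.8, 7.38 and 12.1 FPKM in Nmd-/-. Syn2 measured 32.8, 20.97 and 30.9 FPKM in Nmd+/+ and 31.5, 29.5 and 27.2 FPKM in Nmd-/-, where only the Nmd+/+ library of replicate 2 was clearly low. Of the neurexin genes, whose products link the presynaptic membrane to its partners across the cleft, Nrxn2 measured 74.2, 24.8 and 52.4 FPKM in Nmd+/+ and 65.6, 35.99 and 38.8 FPKM in Nmd-/-, and Nrxn3 lay at 12.7 to 23.4 FPKM.

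Syn1 is shown with the sequence before its start because it was the only member with a match to RE1, the element bound by REST, a repressor of neuronal genes in other cells. RefSeq windows on GRCm38.p6, from 250 bases before to 50 after each start, were found for 34 of the 46 symbols. RE1 was searched on both strands as a consensus of 21 letters, with at most 3 mismatches among its 18 fixed letters. It matched 1 of 34 members (2.94%) and 31 of all 27025 symbols (0.115%). The cyclic AMP response element TGACGTCA, which reads the same on both strands, also matched 1 of 34, again Syn1, against 2.03% of all symbols. The stretch below runs 5′ to 3′ on the minus strand of chrX:20921005-20921168, outside the gene model of the files, with both matches in capitals. The RE1 match, with 1 mismatch, starts 232 bases before the RefSeq start, and the other match 159 bases before it.
Syn1: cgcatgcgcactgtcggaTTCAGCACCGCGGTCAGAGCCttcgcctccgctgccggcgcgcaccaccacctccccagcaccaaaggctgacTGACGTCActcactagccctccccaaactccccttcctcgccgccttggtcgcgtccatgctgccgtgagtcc
A match describes these letters only. Windows of members held a median of 19 CpG, against 7 over all windows.

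The order of the libraries was shared by most members. Both replicate 2 libraries lay below the other 4 for 32 of 46 tested rows, against 18.8% of all 14611 tested genes. They lay above the other 4 for 3 rows, Vamp3, Sypl and Rab3d, against 20.6% of all genes. The members most abundant in each role had replicate 2 lowest in both genotypes throughout. Besides those 3, the order was not met by Vamp4, Cplx2, Syt2, Syt6, Syt9, Unc13b, the Pclo lincRNA row, Synpr, Syngr1, Syn2 and Nrxn3.

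Markers of fibroblasts and of neurons moved with this order, in opposite directions. Both replicate 2 libraries were highest for 4 of 6 tested oligodendrocyte lineage markers. They were highest for only 1 of 8 dividing cell markers and 2 of 9 radial glia and astrocyte markers. The 6 fibroblast markers summed to 141 and 174 FPKM in replicate 2 of Nmd+/+ and Nmd-/- and to between 2.22 and 3.52 FPKM elsewhere. The 12 neuron markers, none of which is a member, summed to 2545, 1256 and 2428 FPKM in Nmd+/+ and to 2388, 1305 and 1927 FPKM in Nmd-/-. The members summed to 2158, 1267 and 2021 FPKM and to 2117, 1289 and 1599 FPKM. The ratio of the members to the neuron markers was thus 0.848, 1.01 and 0.832 in Nmd+/+ and 0.887, 0.988 and 0.830 in Nmd-/-. The part of the fibroblast transcripts in this order was not tested.

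**Figure D2:**
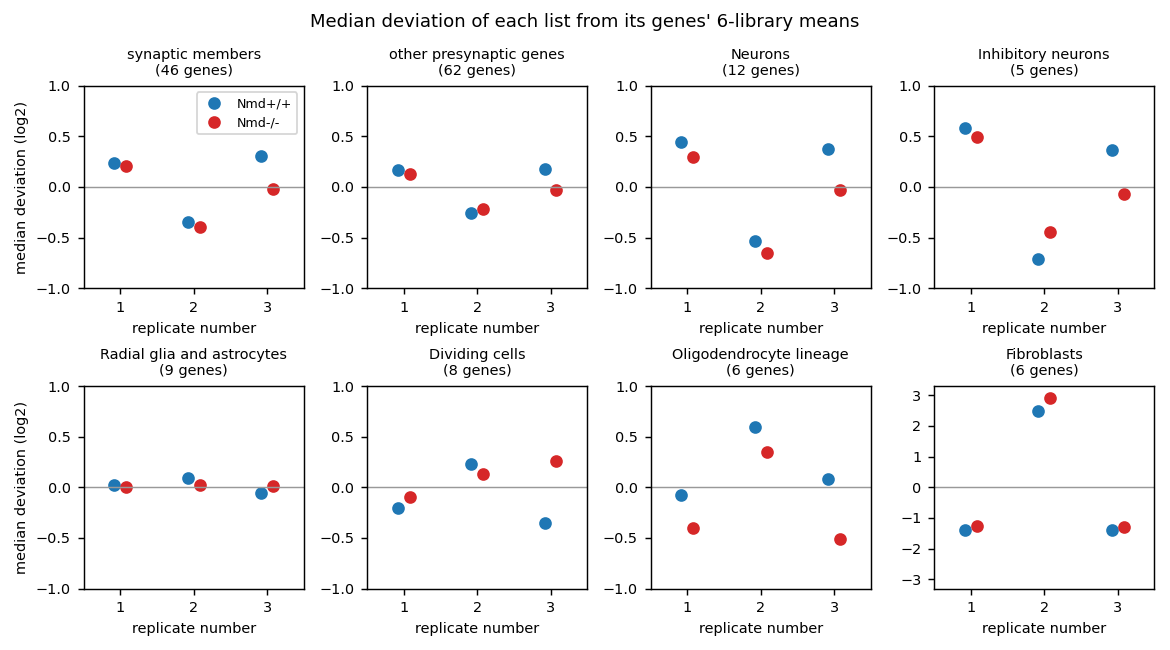
Median deviation of each gene list from its genes' own means over the 6 libraries, in log2(FPKM + 1), by replicate number and genotype, with a wider axis for fibroblasts. Synaptic members and neurons are lowest at replicate 2 in both genotypes and lower in Nmd-/- than in Nmd+/+ at replicate 3, where dividing cell markers are higher.

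The comparison of Nmd-/- with Nmd+/+ asked whether homozygosity for the nmd allele goes with a different level of the release machinery. No tested member was called different between the genotypes. In limma on log2(FPKM + 1), 0 of 46 tested rows had an adjusted p under 0.05, as did 0 of 14611 genes (0%), and the smallest adjusted p of a member was 0.9997. At an unadjusted p under 0.05 there were 0 members in limma, against 0.171% of all genes lower and 0.274% higher. The median SE of a member's log2 difference was 0.26, against 0.17 over all genes.

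By their log2 differences, 37 of 46 rows were lower in Nmd-/- (80.4%), against 44% of all genes, and 9 were higher. With median-of-ratios scaling 39 of 46 members and 51.3% of all genes were lower. The median was -0.12, against 0.02 over all genes. This median shifted with the library left out: it was -0.37 without Nmd+/+ replicate 2, -0.29 without Nmd-/- replicate 1 and -0.14 without Nmd-/- replicate 3. It was -0.03 without Nmd+/+ replicate 1, -0.01 without Nmd+/+ replicate 3 and 0.04 without Nmd-/- replicate 2. Without replicate 2 of both genotypes it was -0.18, with 41 of 46 rows lower, and with sample quality weights it was -0.29. Leaving out 1 library at a time, the count of lower rows lay between 18 (without Nmd-/- replicate 2) and 40 (without Nmd+/+ replicate 2). Both replicate 2 libraries were low for most members, so leaving out 1 of them keeps that low level in 1 genotype only. These counts therefore do not show how stable a difference within pairs is. For 0 of 46 rows the 3 values of one genotype lay apart from those of the other, against 0.91% of all genes apart and lower and 1.76% apart and higher.

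**Figure D3:**
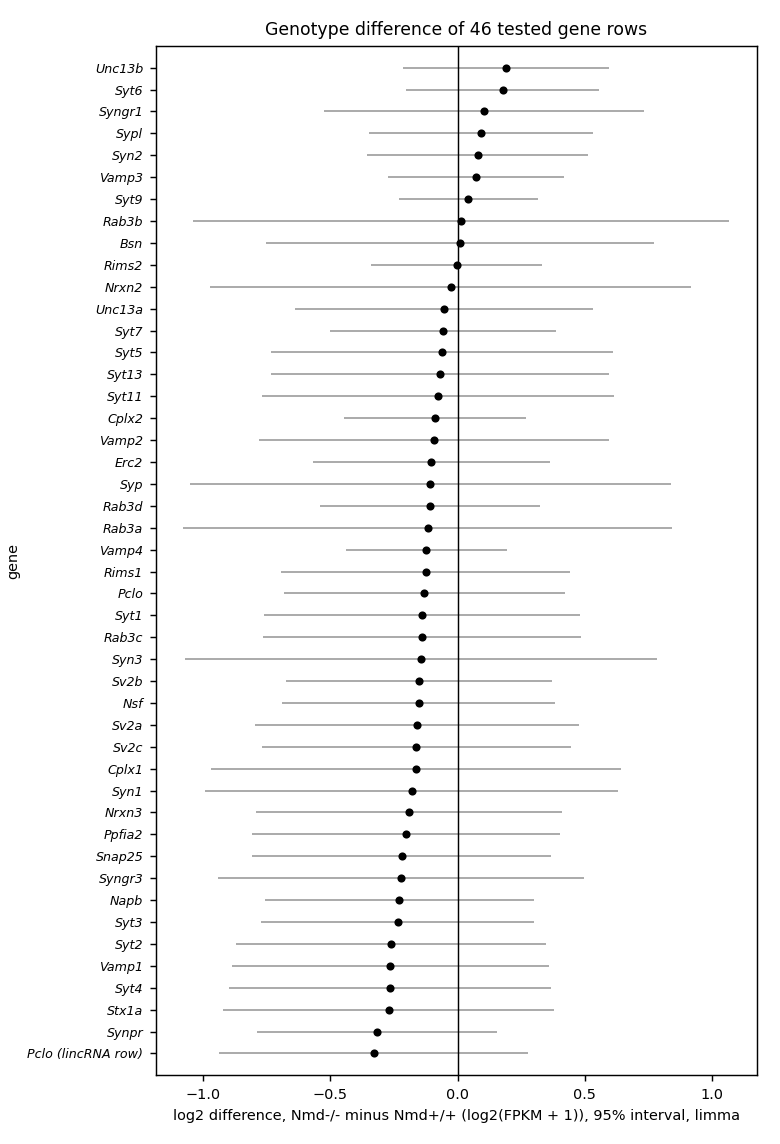
Log2 difference between genotypes, Nmd-/- minus Nmd+/+, of the 46 tested rows with its 95% interval from limma, in log2(FPKM + 1). Of the 46, 37 estimates lie below 0, and each interval includes 0.

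The role groups divide the same 46 rows, so their counts are not separate evidence. Of all genes, 44% were lower. Lower by their estimates were 5 of 6 SNARE genes (median log2 difference -0.17), 2 of 2 genes of SNARE disassembly (-0.19), 2 of 2 complexins (-0.13), 8 of 10 tested synaptotagmins (-0.07), 7 of 9 active zone rows (-0.10), 3 of 4 Rab3 genes (-0.11), 6 of 8 vesicle membrane genes (-0.16), 2 of 3 synapsins (-0.14) and 2 of 2 neurexins (-0.11). Vamp2 averaged 363 ± 108 FPKM in Nmd+/+ and 339 ± 104 FPKM in Nmd-/- (SD, n = 3 each), a log2 difference of -0.09 (SE 0.29, 95% interval -0.78 to 0.59). Cplx1 averaged 124 ± 44.9 FPKM in Nmd+/+ and 109 ± 34.6 FPKM in Nmd-/- (SD, n = 3 each), with -0.16 (SE 0.34, 95% interval -0.97 to 0.64). For Syn1 the difference was -0.18 (SE 0.35, 95% interval -0.99 to 0.63), for Rab3a -0.12 (SE 0.41, 95% interval -1.08 to 0.84), for Syp -0.11 (SE 0.40, 95% interval -1.05 to 0.84), for Syt11 -0.08 (SE 0.30, 95% interval -0.77 to 0.61), for Nsf -0.15 (SE 0.23, 95% interval -0.69 to 0.38), for Pclo -0.13 (SE 0.24, 95% interval -0.68 to 0.42) and for Nrxn2 -0.03 (SE 0.40, 95% interval -0.97 to 0.92). Each interval lies on both sides of 0, so the direction of these differences is not settled by this fit with 3 libraries a genotype. The fit leaves the replicate numbers out. With the replicate number as a block, described below, the median SE of a member was 0.12.

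Among the 8 rows with the smallest unadjusted p, 6 were lower in Nmd-/-. Synpr averaged 8.30 ± 2.46 FPKM in Nmd+/+ and 6.34 ± 0.823 FPKM in Nmd-/- (SD, n = 3 each), a log2 difference of -0.32 (SE 0.20, 95% interval -0.79 to 0.16). The Pclo lincRNA row had -0.33 (SE 0.26, 95% interval -0.94 to 0.28), Vamp1 -0.27 (SE 0.27, 95% interval -0.89 to 0.36), Syt2 -0.26 (SE 0.26, 95% interval -0.87 to 0.35), Syt3 -0.24 (SE 0.23, 95% interval -0.77 to 0.30) and Napb -0.23 (SE 0.23, 95% interval -0.76 to 0.30). The others, Unc13b and Syt6, were higher, with 0.19 (SE 0.17, 95% interval -0.21 to 0.59) and 0.18 (SE 0.16, 95% interval -0.20 to 0.56). Each of these 8 had limma adjusted p = 0.9997.

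The replicate numbers paired the libraries, in that same-numbered libraries of the 2 genotypes deviated together. With the replicate number as a block in limma the median SE of a member came down to 0.12, and again 0 of 46 rows had an adjusted p under 0.05, as did 0% of all genes. The smallest adjusted p of a member was 0.990 with the block. At an unadjusted p under 0.05 stood 3 of 46 rows, all lower, against 1.74% of all genes lower and 3.13% higher. These were Synpr, Stx1a and Syt4, the latter pair named after their values were seen. Stx1a averaged 14.2 ± 4.14 FPKM in Nmd+/+ and 11.6 ± 3.79 FPKM in Nmd-/- (SD, n = 3 each), a log2 difference of -0.27 with an SE of 0.12 under the block. Syt4 averaged 36.5 ± 10.5 FPKM in Nmd+/+ and 30.1 ± 8.02 FPKM in Nmd-/- (SD, n = 3 each), with -0.27 and 0.12. Leaving out 1 library at a time, without the block, gave -0.51 (without Nmd+/+ replicate 2) to -0.088 (without Nmd-/- replicate 2) for Stx1a and -0.48 to -0.031 for Syt4 with the same libraries left out. For Synpr it gave -0.43 (without Nmd+/+ replicate 1) to -0.11 (without Nmd+/+ replicate 3). Each such fit leaves 1 library without its same-numbered partner, so these ranges do not measure the stability of the paired difference. Within pairs 1, 2 and 3 the log2 differences of Stx1a were -0.14, -0.15 and -0.52. Those of Syt4 were -0.02, -0.31 and -0.47, and those of Synpr -0.13, -0.26 and -0.56.

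Taken pair by pair, most members lay close to 0 in replicate number 1, differed in both directions in number 2 and were lower in Nmd-/- in number 3. The median log2 difference was -0.02 in pair 1, 0.02 in pair 2 and -0.37 in pair 3, against -0.001, 0.02 and 0.04 over all tested genes. Lower in Nmd-/- were 27 of 46 rows in pair 1 (58.7%, against 50.6% of all genes), 22 in pair 2 (47.8%, against 47.3%) and 40 in pair 3 (87.0%, against 42.4%). The deposited 95% intervals, which cover estimation error within a library and not the spread between cultures, lay apart with Nmd-/- lower for 5 rows in pair 1, 9 in pair 2 and 37 in pair 3. The shares over all genes were 5.85%, 18.9% and 15.5%. They lay apart with Nmd-/- higher for 3, 9 and 3 rows, against 4.73%, 21.1% and 24.6%. With 1 library a genotype in each pair there is no test of these differences.

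**Figure D4:**
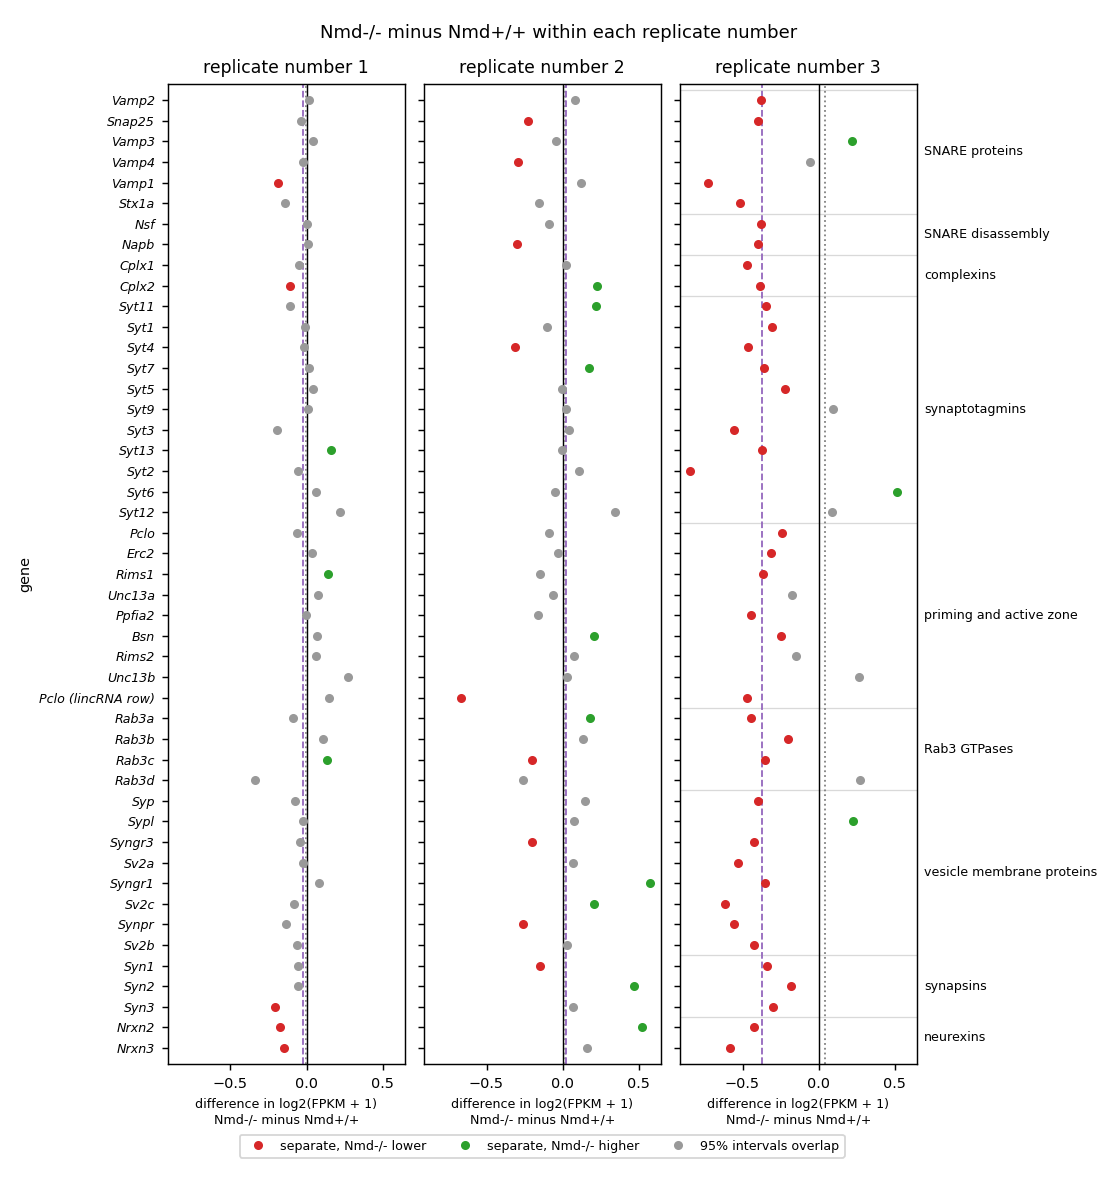
Difference in log2(FPKM + 1), Nmd-/- minus Nmd+/+, of each row within replicate numbers 1, 2 and 3, coloured by whether the deposited 95% intervals lay apart. The dashed line marks the median of the tested members, -0.02, 0.02 and -0.37, and the dotted line that of all tested genes.

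In pair 3 the Nmd-/- library stood at 0.770 of the Nmd+/+ level for Vamp2, 0.758 for Snap25, 0.721 for Cplx1, 0.733 for Rab3a and 0.485 for Syt2, the lowest ratio of the set. In pair 1 the same genes stood at 1.01, 0.973, 0.968, 0.940 and 0.956. The 3 rows with intervals apart and higher in pair 3 were Vamp3, Sypl and Syt6, at 1.16, 1.17 and 1.61 of the Nmd+/+ level. In pair 2 the members were divided. Nrxn2, Syngr1 and Syn2 were higher in Nmd-/- there, by 0.52, 0.58 and 0.47 on the log2 scale. The Pclo lincRNA row had the lowest difference, -0.67. Among other rows that were lower, Syt4, Napb and Snap25 differed by -0.31, -0.30 and -0.23. In all 3 pairs 10 of 46 rows were lower (against 10.6% of all genes): Snap25, Stx1a, Vamp4, Syt1, Syt4, Pclo, Ppfia2, Syngr3, Synpr and Syn1. Higher in all 3 were 2 rows, Unc13b and Syt9, against 14.9%.

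Other gene lists also differed between the libraries of pair 3. The summed neuron markers of Nmd-/- stood at 0.793 of the Nmd+/+ level in pair 3, and those of inhibitory neurons at 0.764, beside 0.791 for the members. Dividing cell markers stood at 1.53 and those of the oligodendrocyte lineage at 0.599, the latter also at 0.626 in pair 1. The sum of radial glia and astrocyte markers stood at 1.34, mostly through Vim (2380.3 against 3470.2 FPKM), while 4 of these 9 genes were lower and their median log2 difference was 0.08. In pairs 1 and 2 the ratios were 0.938 and 1.04 for neuron markers and 0.981 and 1.02 for the members. When each library was centred on its 12 neuron markers, a step added after seeing the data, the pair medians of the members came to 0.08, 0.05 and 0.04, and 16 of 46 rows were lower in pair 3. The centring moves all genes alike, so that their pair medians came to 0.10, 0.04 and 0.46, with 649 of 14611 lower in pair 3, and the members still lay below them there. The median log2 difference between genotypes was then 0.05, with 13 of 46 rows lower, against 0.19 over all genes, of which 6.24% were lower.

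Other genes of the presynaptic terminal served as a second list, 68 genes named by function, of which 62 passed the filter. They include genes of SNARE binding partners and of endocytic proteins. Of these, 0 had an adjusted p under 0.05 in limma, with or without the block, and at an unadjusted p under 0.05 there were 0 without the block and 1, lower, with it. Lower in Nmd-/- by their estimates were 43 of 62 (69.4%, against 44% of all genes), with a median of -0.05, against 0.02. Their pair medians were 0.002, 0.03 and -0.19, against -0.001, 0.02 and 0.04 over all tested genes. Both replicate 2 libraries were lowest for 39 of 62, against 18.8% of all genes. Among the most abundant were Clta, which encodes a clathrin light chain (164 to 182 FPKM), Snap47 (107 to 153 FPKM), Sncb, which encodes beta-synuclein (53.8 to 116 FPKM) and Napa (77.5 to 94.0 FPKM). Their log2 differences were -0.03, -0.07, -0.16 and -0.06 (limma adjusted p = 0.9997 for each). The genotypes did not overlap for Stxbp6, named after its values were seen, whose product amisyn binds SNAREs. It measured 23.2, 20.7 and 23.9 FPKM in Nmd+/+ and 20.02, 18.7 and 20.6 FPKM in Nmd-/-, and did not pass the test (limma adjusted p = 0.9997, and 0.999 with the block).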

How the data were processed

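Per the file headers, the deposited values are FPKM per gene with the bounds of a 95% interval and a status, made by the authors with Cufflinks, 1 table a library. Cufflinks 2.2.1 and GRCm38 are listed in the submitters' processing notes, beside cutadapt 1.8 and Trim Galore 0.4.0 for trimming, SAMtools 1.3 and FastQC 0.10.1. Sources used here give no aligner version, annotation release or strand setting. FPKM tables carry no counts, so depth was read from interval widths as equivalents in fragments, which cover estimation error only. Genes with a mean of at least 1 FPKM and an accepted status in all 6 libraries were tested (14611). All 47 member rows had an accepted status, and a failed one removed 28 other genes at that level. Starts in the files count from 0: with 1 added, 39 of the 46 member rows found in GENCODE M21 had its start.

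Genotype was compared with limma 3.58.1 in R 4.3.3, fitting log2(FPKM + 1) with a trended prior variance, unscaled, with Benjamini-Hochberg adjustment over all genes (threshold 0.05, two-sided). Fold changes on this scale understate those of low genes. Tests were checked on simulated data. After subtracting each genotype's mean, libraries of the same number correlated over genes (r of 0.82 for number 1, 0.70 for 2 and 0.39 for 3), so the numbers were taken as pairs. This pairing comes from the values, not from a label. The members and gene lists were chosen with earlier results of these data known. Named with tests were the 8 members with the smallest p and the most abundant of each role, and of other presynaptic genes the 5 most abundant, except that some results are not reported here. Promoter sequences are RefSeq's. Figures were drawn with matplotlib 3.10.9.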

Additional observations from a re-analysis of the deposited data

How the results depend on the processing

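Under 16 alternative settings 0 genes and 0 of the synaptic members had an adjusted p under 0.05 in limma; at an unadjusted p under 0.05 there were between 0 and 6 members, the most with sample quality weights, where 977 of 14611 genes did so. Those weights gave a median over members of -0.29, with -0.29 for Vamp2 and -0.31 for Nrxn2. The fit with the replicate block is one of the 16 settings, with a smallest adjusted p of 0.990 among members and 0.0740 over all genes, so the pairing changed no call. Of 318 values for 20 named members, 290 kept their sign and 28 changed it, 8 of these by the centring on neuron markers and the others by leaving out 1 library. Leaving out 1 library also leaves the other library of its number without a partner. Leaving out 1 library at a time gave log2 differences from -0.36 to 0.087 for Vamp2, -0.51 to 0.19 for Rab3a, -0.51 to 0.089 for Cplx1, -0.49 to 0.11 for Syn1, -0.52 to 0.17 for Syp, -0.38 to 0.13 for Syt11, -0.35 to 0.010 for Nsf, -0.46 to 0.31 for Nrxn2, -0.34 to 0.056 for Pclo, and a median over members from -0.37 to 0.043. Centred on the neuron markers, which was chosen after seeing the data, the differences were 0.084 for Vamp2, 0.059 for Rab3a, 0.014 for Cplx1, 0.069 for Syp, 0.10 for Syt11, 0.024 for Nsf, 0.15 for Nrxn2, 0.046 for Pclo, and the median of pair 3 was 0.041. The centring adds 1 shift to all genes in a library, so these changes of sign say nothing particular to the members. With no filter on low values 1 member, Syt12, had groups apart and higher, against 0 with it, because the filter leaves it out. Depth limits the members least abundant per library, the lowest at the equivalent of 15.3 fragments.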
